A study of Mus musculus with 34 samples.

Results

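The genes *Tcf7l2*, *Lef1*, *Zic1*, *Slc17a6*, *Ramp3*, *Rgs16*, *Tnnt1* and *Synpo2* are markers of the thalamus, and their levels were followed in hippocampal tissue as a measure of how much thalamic RNA each dissection carried. They were taken by symbol from the deposited FPKM values, and all 8 were found among the 23951 genes listed. FPKM is a fragment count scaled by transcript length and by the size of the library. Hippocampal RNA of 20 male mice, 1 library per mouse, was compared across 4 groups.

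All 20 mice carried the floxed *Hdac1f/f* allele. The 4 control mice carried nothing further, and the 5 *Hdac1* cKO mice also carried Nestin-Cre, which removes *Hdac1* from neurons and astrocytes while microglia keep it. The 6 5XFAD mice carried *Hdac1f/f* and the 5XFAD transgenes, which are driven by the neuronal *Thy1* promoter, and the 5 compound mice carried *Hdac1f/f*, Nestin-Cre and 5XFAD together. The labels give 13 to 14 months for the control and *Hdac1* cKO mice and 13 months for the 5XFAD and compound mice. Libraries of cortical GFAP+ nuclei, made with another kit from 3 control mice and 4 *Hdac1* cKO mice, were read beside them.

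The thalamus lies directly beneath the hippocampus, and the habenula and the choroid plexus border it. Most thalamic relay neurons are excitatory, use the vesicular glutamate transporter VGLUT2 and keep the Wnt-pathway transcription factors TCF7L2 and LEF1 into adulthood, whereas principal neurons of the adult hippocampus mainly use VGLUT1. None of these genes is exclusive to the thalamus. *Tcf7l2* is also made by glia, *Lef1* by brain endothelium and *Zic1* by cells of the meninges.

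The members lie on 6 chromosomes and all are protein coding. In the mm9 annotation, the build that the authors used, *Tcf7l2* spans chr19:55816300-56008144 (+ strand), *Lef1* chr3:130813389-130927274 (+), *Zic1* chr9:91252896-91260648 (-) and *Slc17a6* chr7:58877200-58926495 (+). *Ramp3* spans chr11:6558524-6577478 (+), *Rgs16* chr1:155587479-155592598 (+), *Tnnt1* chr7:4456172-4467984 (-) and *Synpo2* chr3:122779437-122939067 (-).

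Because the members varied together in some mice and the study looked at guanine-rich motifs in promoters, the 250 bases before their start sites were searched in the RefSeq promoter windows of GRCm38.p6. All 8 members matched, with 13 windows in all. The study searched known motifs with the HOMER program in wider windows on both sides of the start site, so the searches are not alike. The GC box core GGGCGG, on either strand and with overlaps allowed, was present in at least 1 window of all 8 members, against 35.4% of the 27025 genes with a window. As 3 members had more than 1 window, it was also counted by window, in 10 of the 13, against 32.7% of all 32851 windows. The TCF/LEF core CTTTGA was present in 1 of the 8, in a window of *Lef1*, against 15.8% of genes, and the longer CTTTGAT in 0 of the 8, against 3.72% of genes. A match is a description of these letters, and nothing about a factor follows from a window without one. The windows of *Tcf7l2*, one of the genes highest in the mice that stand apart below, and of *Zic1* and *Tnnt1*, called lower in 2 comparisons, are shown 5′ to 3′ with the GC box cores of either strand in capitals. They lie at chr19:55741560-55741809 (+), chr9:91365769-91366018 (-) and chr7:4515976-4516225 (-) of GRCm38.p6.
Tcf7l2: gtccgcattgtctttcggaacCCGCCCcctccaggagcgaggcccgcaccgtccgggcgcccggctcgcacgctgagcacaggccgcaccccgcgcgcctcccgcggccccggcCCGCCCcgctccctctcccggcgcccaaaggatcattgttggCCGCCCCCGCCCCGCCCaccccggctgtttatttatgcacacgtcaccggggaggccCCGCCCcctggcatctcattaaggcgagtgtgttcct
Zic1: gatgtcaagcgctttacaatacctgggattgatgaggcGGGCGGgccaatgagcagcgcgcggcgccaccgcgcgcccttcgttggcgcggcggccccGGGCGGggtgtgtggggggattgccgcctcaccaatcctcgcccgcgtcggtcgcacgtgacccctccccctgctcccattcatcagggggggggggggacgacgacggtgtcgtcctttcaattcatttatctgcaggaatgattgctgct
Tnnt1: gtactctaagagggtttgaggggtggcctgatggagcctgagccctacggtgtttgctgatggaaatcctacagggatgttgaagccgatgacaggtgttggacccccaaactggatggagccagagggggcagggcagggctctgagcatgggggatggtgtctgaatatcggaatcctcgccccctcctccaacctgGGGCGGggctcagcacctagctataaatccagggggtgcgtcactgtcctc

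The *Tcf7l2* window shown held 6 GC box cores, some of them overlapping, the *Zic1* window 2 and the *Tnnt1* window 1. Their GC content was 72.8%, 66.0% and 59.2%, against a median of 52.4% over all windows. A second *Tcf7l2* window, at chr19:55895071-55895320 (+) and not shown, held 0 cores and had a GC content of 40.8%.

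The labels were checked first. *Hdac1* ranged from 5.91 to 10.7 FPKM in control and from 6.10 to 9.64 FPKM in 5XFAD mice. With Nestin-Cre it ranged from 2.36 to 3.03 FPKM without 5XFAD and from 1.15 to 2.52 FPKM with it. *Thy1*, whose promoter drives the 5XFAD transgenes, lay between 303 and 388 FPKM in the mice without 5XFAD and between 1563 and 2357 FPKM in those with it. All 20 hippocampal libraries matched their labels in both genes. In the GFAP+ nuclei *Hdac1* overlapped, at 9.91 to 22.3 FPKM in the 3 control and 5.80 to 11.55 FPKM in the 4 *Hdac1* cKO libraries, so it does not separate those labels library by library. All 12 marker genes of hippocampal neurons were above 0 in all 20 libraries. Their summed level ran from 314 to 517 FPKM. Their mean log2(FPKM + 1) was 3.88 in control mouse 4 and 4.04 in 5XFAD mouse 6, the mice described next, and at most 4.301 and at least 3.62 over all libraries. Relative depth ranged from 0.754 to 2.35, with control mouse 1 set to 1.

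Thalamic markers were high in 2 of the 20 dissections, 1 control and 1 5XFAD. In control mouse 4 and 5XFAD mouse 6, 7 of the 8 genes stood above their level in every one of the other 18 mice, the exception being *Zic1*. Of the 14389 genes that average 0.5 FPKM or more, 101 (0.702%) had this pattern, among them 6 of the 7 members that reach this level. *Synpo2*, which averages less, is not in that base. The highest value of a member fell in control mouse 4 for 4 genes and in 5XFAD mouse 6 for the other 4. These mice were picked out after their values were seen, so this pattern is a description. The fold changes and exact tests that the comparisons below turn on, and the correlations between members, are also given without them.

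The mean log2(FPKM + 1) over the 8 genes, here the thalamic score, was 3.06 in control mouse 4 and 3.20 in 5XFAD mouse 6. It lay between 1.32 and 2.06 in the other 18 mice, with a median of 1.68. The next highest scores were 2.06 in control mouse 3 and 2.03 in 5XFAD mouse 2. No *Hdac1* cKO mouse was above 1.79 and no compound mouse above 1.74. The levels never reached 0, since all 8 genes were above 0 in all 20 libraries.

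**Figure D1:**
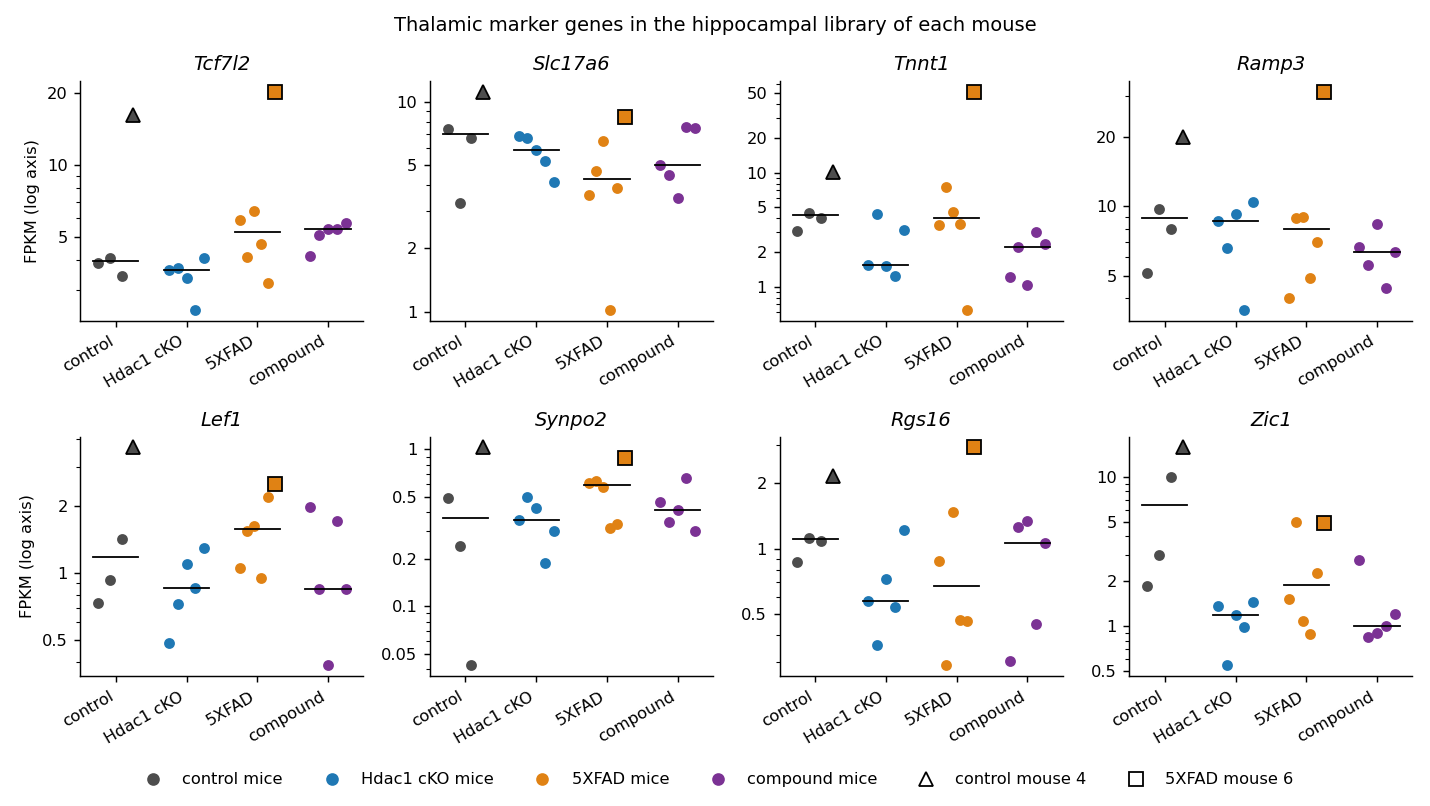
FPKM (log axis) of the 8 thalamic marker genes in the hippocampal library of each mouse, by group, with lines at the group medians. Control mouse 4 (triangle) and 5XFAD mouse 6 (square) are above all other mice for 7 of the 8 genes, with *Tcf7l2* at 16.2 and 20.3 FPKM.

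Among the transcription factors, *Tcf7l2*, which specifies thalamic and habenular neurons, stood at 3.87, 4.08, 3.44 and 16.2 FPKM in control mice 1 to 4. It was 3.65, 3.72, 3.38, 2.47 and 4.08 FPKM in the 5 *Hdac1* cKO mice and 4.15, 5.07, 5.40, 5.40 and 5.71 FPKM in the 5 compound mice. In the 6 5XFAD mice it ran from 3.20 through a median of 5.27 to 20.3 FPKM. Apart from control mouse 4 and 5XFAD mouse 6, the levels of the groups lay close together, and compound mice were above all other control mice. Control mouse 4 was 4.17 times the median of the other control mice, and 5XFAD mouse 6 was 4.33 times the median of the other 5XFAD mice.

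*Lef1*, a partner of β-catenin related to *Tcf7l2*, was 0.731, 0.929, 1.43 and 3.67 FPKM in the control mice. It ranged from 0.484 to 1.30 FPKM in *Hdac1* cKO mice, from 0.948 to 2.52 FPKM in 5XFAD mice and from 0.384 to 1.99 FPKM in compound mice. The 4 ranges overlapped, and 5XFAD mouse 5, at 2.20 FPKM, came close to 5XFAD mouse 6.

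*Zic1*, a zinc-finger transcription factor of medial thalamus, septum and cerebellum, followed another order. It stood at 1.85, 2.98, 9.96 and 15.7 FPKM in control mice 1 to 4. It was 1.36, 0.546, 1.197, 0.992 and 1.45 FPKM in the *Hdac1* cKO mice, all below the lowest control mouse. In the compound mice it was 2.76, 0.848, 0.906, 1.00 and 1.199 FPKM, with compound mouse 1 inside the control range and the others below it. In the 5XFAD mice it ran from 0.888 through a median of 1.89 to 4.97 FPKM, the highest being 5XFAD mouse 2, with 5XFAD mouse 6 at 4.93 FPKM.

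Of the genes of synaptic and receptor signalling, *Slc17a6*, which encodes VGLUT2, was 7.38, 3.30, 6.70 and 11.1 FPKM in the control mice and 8.44 FPKM in 5XFAD mouse 6. It showed the smallest excess of the 8 genes in control mouse 4, at 1.66 times the median of the other control mice. The *Hdac1* cKO mice lay between 4.15 and 6.89 FPKM, the compound mice between 3.46 and 7.55 FPKM and the other 5XFAD mice between 1.02 and 6.50 FPKM, so the 4 groups overlapped.

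*Ramp3*, a partner of the calcitonin-receptor family, stood at 5.12, 9.76, 7.98 and 19.9 FPKM in the control mice and at 31.3 FPKM in 5XFAD mouse 6. The other 5XFAD mice lay between 4.01 and 8.95 FPKM, the *Hdac1* cKO mice between 3.55 and 10.4 FPKM and the compound mice between 4.44 and 8.40 FPKM. Apart from the mice that stand apart, no group was separated from another.

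*Rgs16*, which shortens signalling through G proteins, was low, at 0.863, 1.12, 1.09 and 2.16 FPKM in the control mice and 2.92 FPKM in 5XFAD mouse 6. Elsewhere it lay between 0.289 and 1.47 FPKM. Its value rested on few fragments, a median of 7.5 over the 20 libraries when FPKM was turned back into the smallest whole numbers of fragments.

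Of the genes of contractile and actin-bound proteins, *Tnnt1*, the slow skeletal troponin T, showed the largest excess in 5XFAD mouse 6. It stood at 3.10, 4.42, 4.04 and 10.04 FPKM in the control mice. In the 5XFAD mice it ran from 0.627 through a median of 4.01 to 50.9 FPKM, and 5XFAD mouse 6 was 14.4 times the median of the other 5XFAD mice. It was 1.55, 4.35, 1.52, 1.25 and 3.13 FPKM in the *Hdac1* cKO mice and 1.22, 2.25, 1.03, 2.99 and 2.39 FPKM in the compound mice. All compound mice were below all control mice, whereas 2 of the *Hdac1* cKO mice reached into the control range.

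*Synpo2*, an actin-binding relative of synaptopodin, was listed at 0.488, 0.243, 0.0420 and 1.03 FPKM in the control mice and 0.881 FPKM in 5XFAD mouse 6. Every other mouse was at or below 0.654 FPKM, and the control mouse 3 value rested on 1 fragment. Whole fragment numbers were recovered for 5 of the 8 genes, from 1 to 44 for *Synpo2*, 2 to 45 for *Rgs16*, 7 to 236 for *Zic1*, 17 to 230 for *Ramp3* and 21 to 251 for *Slc17a6*. The lowest values of these genes therefore carry large counting error.

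The members were compared between groups with limma on log2(FPKM + 1), and a gene was called where it changed 1.5-fold or more with an unadjusted p under 0.05. The values 1.5 and 0.05 are those of the study's methods, which do not say whether p was adjusted. Their use on log2(FPKM + 1) is a choice made here. In whole tissue, fewer thalamic cells and less RNA per cell cannot be told apart. The labels do not say whether litters or dissections were shared. Libraries of mice with the *Thy1*-driven transgenes also form a separate block of samples from the control libraries, as described under data processing. The 3 comparisons against control use the same 4 control mice, control mouse 4 among them, so they are not independent.

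For *Hdac1* cKO against control, which asks what loss of *Hdac1* changes in the aged hippocampus, 7 of the 8 genes could be tested, *Synpo2* being below the filter of 0.5 FPKM. Both genes called were lower in the *Hdac1* cKO mice, *Zic1* with a log2 fold change of -1.70 ± 0.48 (SE) and *Tnnt1* with -0.91 ± 0.32. That is 2 of 7, against 3.36% of the 14265 genes tested. *Zic1* averaged 7.62 ± 6.46 FPKM in control mice (SD, n = 4) and 1.11 ± 0.360 FPKM in *Hdac1* cKO mice (SD, n = 5), the control spread being nearly as large as the mean. *Tnnt1* averaged 5.40 ± 3.14 FPKM and 2.36 ± 1.34 FPKM in the same mice.

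Neither call held after Benjamini-Hochberg adjustment in limma, with an adjusted p of 0.214 for *Zic1* and 0.303 for *Tnnt1*, where 0.154% of all genes had an adjusted p under 0.05. The two-sided exact permutation test gave p = 0.0159 for *Zic1*, whose groups did not overlap, and p = 0.0794 for *Tnnt1*, whose groups did. The value of 0.0159 is the smallest that this test can give for 4 against 5 mice. In limma 1676 of the 14265 genes had an unadjusted p under 0.05. The share of all genes whose groups do not overlap was not counted. With all 4 groups in 1 fit only *Zic1* was called. The other 5 genes also had negative log2 fold changes, from -0.57 for *Tcf7l2* to -0.19 for *Slc17a6*. The median over the 7 was -0.44, beside -0.00068 over all genes tested.

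Leaving out control mouse 4 moved these values. Without it the median log2 fold change of the 7 genes was -0.11, *Tcf7l2* stood at -0.11 instead of -0.57 and *Slc17a6* at 0.036 instead of -0.19. *Zic1* was still called, at -1.26 ± 0.37, and *Tnnt1* was no longer called, at -0.61 ± 0.28 with an unadjusted p of 0.0533 in limma. The exact permutation p was then 0.0357 for *Zic1*, the smallest that 3 against 5 mice allow, and 0.179 for *Tnnt1*.

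The same 2 genes were called lower for compound against control, out of 7 tested and beside 4.24% of 14348 genes. *Zic1* had a log2 fold change of -1.58 ± 0.49 and *Tnnt1* of -1.04 ± 0.30. Their adjusted p in limma was 0.252 and 0.197, where 0.662% of genes were under 0.05. The two-sided exact permutation test gave p = 0.0317 for *Zic1* and p = 0.0159 for *Tnnt1*. In limma 1505 of all 14348 genes had an unadjusted p under 0.05. Only *Zic1* was called with all 4 groups in 1 fit, and only *Tnnt1* with the replicate number as a block. *Zic1* averaged 1.34 ± 0.804 FPKM and *Tnnt1* 1.98 ± 0.828 FPKM in the compound mice (SD, n = 5).

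The median log2 fold change of the 7 genes was -0.30 for compound against control, beside -0.0072 over all genes. Without control mouse 4 it was -0.14. Both genes were still called without that mouse, *Zic1* at -1.15 ± 0.41 and *Tnnt1* at -0.74 ± 0.25, with an exact permutation p of 0.0714 and 0.0357. *Tcf7l2* turned from -0.11 ± 0.35 to 0.35 ± 0.15, with an unadjusted p of 0.0426 and an adjusted p of 0.555 in limma. Its exact permutation p was 0.0357, the smallest that 3 against 5 mice allow, against 0.889 with all mice. Control mouse 4 was picked out by values that include its high *Tcf7l2*. The p-values of this gene without that mouse are thus no test of a difference. *Tcf7l2* was not called because its change was under 1.5-fold.

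For 5XFAD against control all 8 genes were tested with limma and 0 were called, beside 2.95% of 14402 genes. None had an unadjusted p under 0.05, and the lowest was 0.0871, for *Zic1* at -1.06 ± 0.56. In limma 1543 of the 14402 genes were under 0.05, so 0 of 8 says little about the members. *Zic1* was called lower with all 4 groups in 1 fit, and also without control mouse 1. Their exact permutation p ran from 0.133 to 0.962, and 0.708% of all genes had an adjusted p under 0.05. Here each group held 1 of the mice that stand apart. The median log2 fold change was -0.043 with all mice, 0.18 without control mouse 4, -0.45 without 5XFAD mouse 6 and -0.17 without both, the last 3 over the 7 genes that then passed the filter. The median over all genes stayed between -0.010 and -0.0071 in these fits.

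*Tnnt1* depended on 1 mouse. It averaged 11.8 ± 19.3 FPKM in the 5XFAD mice (SD, n = 6), and its log2 fold change against control was 0.15 ± 0.86 with all mice and -0.45 ± 0.46 without 5XFAD mouse 6. For *Tcf7l2* the standard error was 0.52 with all mice and 0.20 without both mice that stand apart.

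For compound against 5XFAD, which asks what *Hdac1* loss adds in 5XFAD mice, limma called 0 of 8 genes, beside 1.28% of 14326 genes. None had an unadjusted p under 0.05. The lowest was 0.129, for *Zic1* at -0.52 ± 0.32, and the exact permutation p ran from 0.104 to 0.840. In limma 947 of the 14326 genes had an unadjusted p under 0.05, so 0 of 8 says little here too. A single gene of the whole table, 0.00698%, had an adjusted p under 0.05. The largest difference was that of *Tnnt1*, -1.19 ± 0.74, which was -0.59 ± 0.37 without 5XFAD mouse 6.

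The interaction, which asks whether the effect of *Hdac1* loss differed with 5XFAD, was tested for 7 genes in limma over all 20 mice. None was called, beside 4.07% of 14389 genes, and none had an unadjusted p under 0.05. No gene of the whole table had an adjusted p under 0.05 (0%), and 1290 had an unadjusted p under 0.05. *Zic1* had the lowest unadjusted p of the members, 0.0614, with a difference of log2 fold changes of 1.18 ± 0.59, and 0.92 ± 0.51 without both mice that stand apart. It was called on leaving out control mouse 1, control mouse 2, 5XFAD mouse 2 or 5XFAD mouse 6 alone, with values from 1.35 to 1.59 and a limma adjusted p from 0.353 to 0.559.

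**Figure D2:**
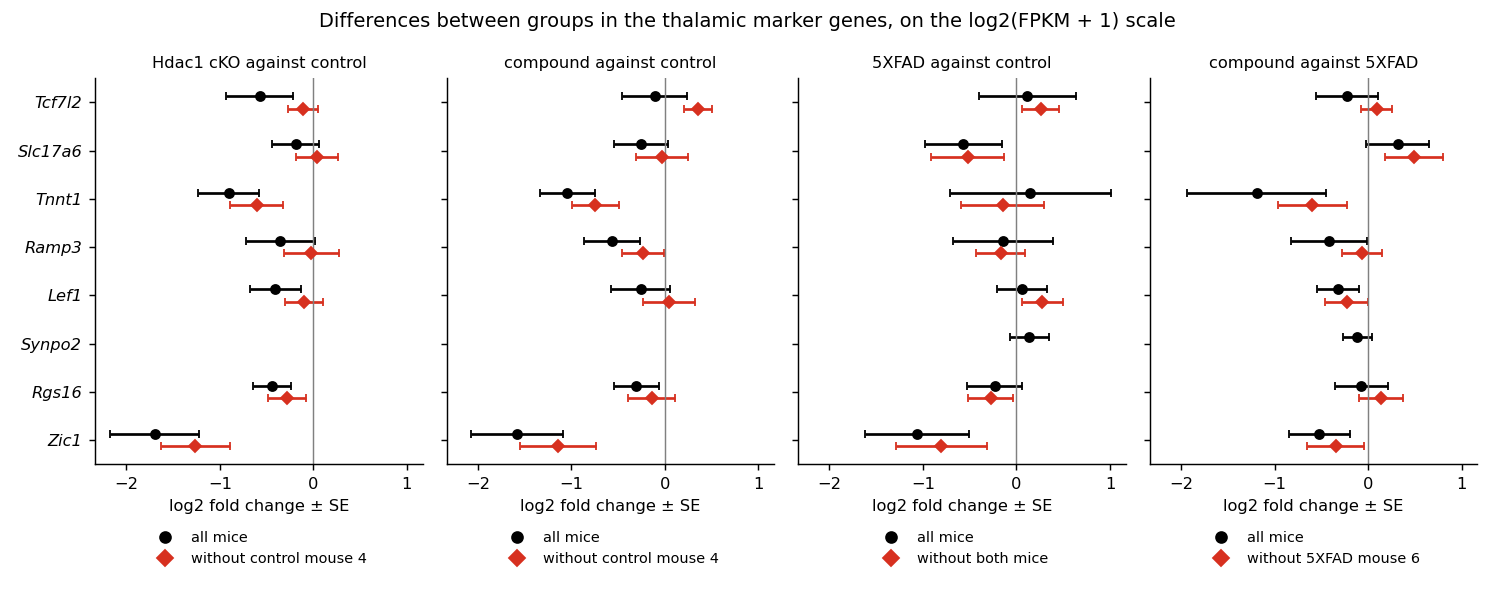
Log2 fold change ± SE (limma, log2(FPKM + 1)) of each thalamic marker gene in 4 comparisons, with all mice (black) and without the mice that stand apart (red). *Synpo2* is shown where it passed the filter, and *Zic1* against control moves from -1.70 to -1.26 in *Hdac1* cKO mice when control mouse 4 is left out.

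Further genes known from the thalamus shared the pattern of the 2 mice in part. Of 18 such genes, chosen with earlier results of these data known, 5 were higher in both control mouse 4 and 5XFAD mouse 6 than in all other mice, *Prkcd*, *Gbx2*, *Rora*, *Ntng1* and *Amotl1*. The other 13 were not. Over genes that average 0.5 FPKM or more, 0.702% had this pattern, and *Gbx2* averages less. *Prkcd*, *Rora* and *Amotl1* were also high in cortical GFAP+ nuclei, as given below. *Kcnab3*, a potassium channel subunit, had its lowest level of the 20 mice in 5XFAD mouse 6, at 2.91 FPKM, and *Pdzrn3* ranked 16 of 20 in control mouse 4, at 1.02 FPKM. These 2 genes are named after their values were seen. *Prkcd*, a protein kinase C of thalamic relay neurons, was 7.28, 6.59, 16.4 and 25.1 FPKM in control mice 1 to 4 and 28.5 FPKM in 5XFAD mouse 6. The remaining 5XFAD mice lay between 6.74 and 12.3 FPKM, the *Hdac1* cKO mice between 6.18 and 10.99 FPKM and the compound mice between 3.82 and 14.2 FPKM. *Gbx2*, a homeobox gene of developing thalamus, was 1.41 and 2.23 FPKM in the 2 mice and at most 0.428 FPKM in the other 18, with a median of 0.

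Between groups, 15 of the 18 genes were tested for *Hdac1* cKO against control and 3 were called lower, beside 3.36% of all genes. They were *Plcb4*, a phospholipase C of thalamus and cerebellum (-0.79 ± 0.21), *Calb2*, the calcium-binding calretinin (-0.61 ± 0.24), and *Zic4*, the genomic neighbour of *Zic1* (-1.12 ± 0.33). For compound against control *Plcb4* (-0.66 ± 0.22) and *Zic4* (-1.14 ± 0.35) were called lower, 2 of 15 beside 4.24%. For 5XFAD against control it was *Zic4* (-0.90 ± 0.39), 1 of 15 beside 2.95%. That call was lost with the replicate block and on leaving out any of several single 5XFAD mice, named further below. Without control mouse 4, *Calb2* was no longer called in *Hdac1* cKO mice (-0.37 ± 0.18), *Plcb4* in compound mice (-0.54 ± 0.23) or *Zic4* in 5XFAD mice (-0.56 ± 0.37), where it was called again without both mice that stand apart (-0.74 ± 0.33). Each of these 3 calls was also lost without control mouse 3, and that of *Calb2* on leaving out some single *Hdac1* cKO mice. *Plcb4* (-0.66 ± 0.22) and *Zic4* (-0.78 ± 0.27) were still called in *Hdac1* cKO mice without control mouse 4, and *Zic4* (-0.80 ± 0.31) in compound mice. With the thalamic score as a covariate, 0 genes of the list were called in *Hdac1* cKO or compound mice against control. That score holds *Zic1* and *Tnnt1* and so carries part of the group difference. In the limma fits of all mice without it, no gene of the list had an adjusted p under 0.05. The adjusted p of the calls with all mice ran from 0.171 to 0.434. For compound against 5XFAD, 0 of 14 were called, beside 1.28%, and none had an unadjusted p under 0.05. *Prkcd* was called in none of the 4 comparisons, with log2 fold changes from -0.72 to -0.072.

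*Zic4* was 0.474, 0.901, 2.54 and 4.52 FPKM in control mice 1 to 4, the same order as *Zic1*, and at most 0.485 FPKM in the *Hdac1* cKO mice. It averaged 2.11 FPKM in control and 0.257 FPKM in *Hdac1* cKO mice. Because 1 is added before the log, its log2 fold change understates this ratio. Over the tested genes of the list, the median log2 fold change was -0.062 for *Hdac1* cKO and -0.11 for compound mice against control, beside -0.44 and -0.30 over the 7 members tested.

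Of the neighbouring tissues, the habenula differed between the 2 mice. Its genes were high in control mouse 4 only. *Gng8*, a G-protein subunit, stood at 24.8 FPKM there and at 0.579 FPKM in 5XFAD mouse 6, with the other 18 mice between 0.557 and 6.07 FPKM. *Tac2*, a tachykinin, was 81.3 and 13.3 FPKM in the 2 mice and between 9.38 and 31.2 FPKM elsewhere. *Gpr151*, a habenular receptor, was 3.95 and 0.484 FPKM, and at most 0.644 FPKM elsewhere. Over all 7 habenula genes the summed level was 124 FPKM in control mouse 4 and between 18.4 and 40.1 FPKM in all other mice. The mean log2(FPKM + 1) of meninges genes was 3.03 in 5XFAD mouse 6, the highest of all mice, and 2.73 in control mouse 4. The other 18 mice had a median of 2.04 and reached 2.89.

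Choroid plexus RNA was not confined to these mice. *Ttr*, transthyretin, was 12903 FPKM in control mouse 4 and 6617 FPKM in 5XFAD mouse 6, but ran up to 20146 FPKM among the other 18, with a median of 212 FPKM. By group, *Ttr* ranged from 576 to 20146 FPKM in control, from 56.5 to 1608 FPKM in *Hdac1* cKO, from 53.8 to 7892 FPKM in 5XFAD and from 58.9 to 13910 FPKM in compound mice. The summed level of all 10 choroid plexus genes had a median of 15507 FPKM in control, 115 in *Hdac1* cKO, 4409 in 5XFAD and 167 in compound mice, and none of the 10 was at 0 in all libraries. Genes of the meninges, where *Zic1* is also made, summed to between 63.8 and 125 FPKM in control, 41.9 and 70.4 in *Hdac1* cKO, 46.1 and 114 in 5XFAD and 48.5 and 102 in compound mice. Ependyma genes summed to between 70.2 and 211 FPKM in control, 39.3 and 51.0 in *Hdac1* cKO, 48.2 and 83.8 in 5XFAD and 41.2 and 128 in compound mice. Endothelial genes summed to between 16.8 and 29.4 FPKM in control, 11.2 and 17.7 in *Hdac1* cKO, 14.9 and 18.9 in 5XFAD and 9.19 and 15.3 in compound mice. Control mice overlapped every group in these sums, except *Hdac1* cKO mice for ependyma and compound mice for endothelium. Striatal genes summed to between 18.2 and 54.8 FPKM in control, 17.7 and 22.2 in *Hdac1* cKO, 16.4 and 33.6 in 5XFAD and 16.0 and 38.3 in compound mice. The median sums of control, *Hdac1* cKO, 5XFAD and compound mice were 98.5, 62.8, 85.4 and 66.9 FPKM for meninges and 137, 43.7, 55.5 and 50.8 FPKM for ependyma. They were 22.6, 13.7, 16.1 and 10.99 FPKM for endothelium and 46.0, 17.9, 24.7 and 24.5 FPKM for striatum. The lower *Zic1* of *Hdac1* cKO and compound mice thus went with lower medians of choroid plexus, meningeal, ependymal, endothelial and striatal RNA, whose part in the result was not tested. The 5XFAD mice were also below control in each of these medians, with *Zic1* at -1.06 ± 0.56 and not called. Lower medians were therefore not particular to the groups where *Zic1* was called.

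**Figure D3:**
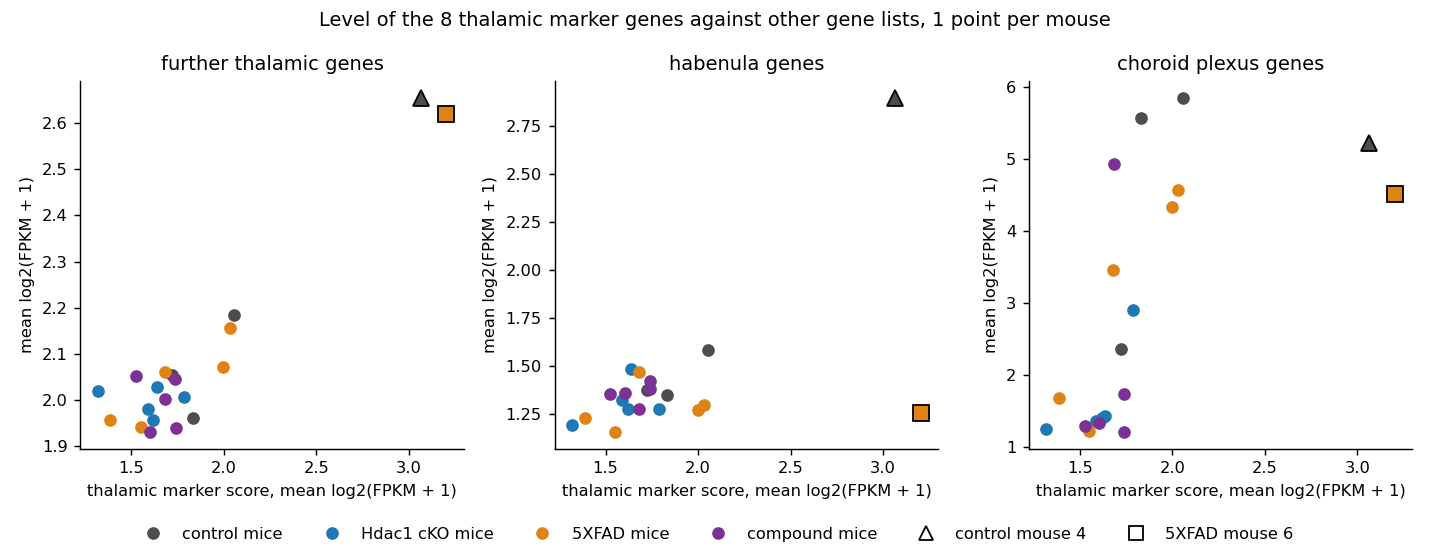
Mean log2(FPKM + 1) of the 8 thalamic marker genes (horizontal) against that of the further thalamic, habenula and choroid plexus genes (vertical), 1 point per mouse. Control mouse 4 and 5XFAD mouse 6 have the highest thalamic levels on both axes of the left panel, and control mouse 4 alone has a high habenula level, 2.90 against 1.26 in 5XFAD mouse 6.

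Across the 20 mice the members went up and down together, and this rested on the 2 mice. All 28 pairs had a positive r of log2(FPKM + 1), with a median of 0.51 and a range of 0.26 to 0.79, whereas the median over all pairs of the 14389 genes was -0.00091. The median of Spearman's rho was 0.31. The strongest pair by r, *Tcf7l2* and *Tnnt1*, had r = 0.79 and rho = 0.47. No p is given, since the members were chosen with results of these data known.

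Without the 2 mice farthest from the median of the first gene of each pair, the median r was 0.15 and 21 of 28 were positive. Without control mouse 4 and 5XFAD mouse 6 the median r was 0.066 and 19 of 28 were positive. *Lef1* and *Zic1* kept r = 0.42 of 0.69, and *Tcf7l2* and *Ramp3* went from 0.73 to -0.021.

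**Figure D4:**
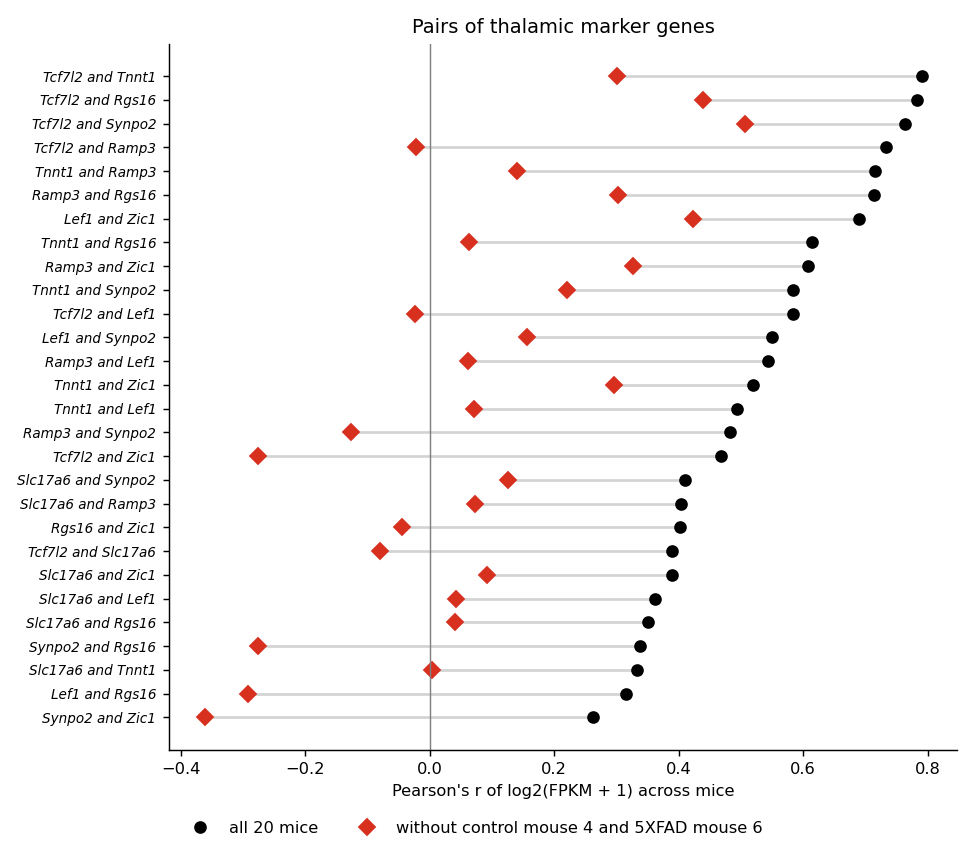
Pearson's r across mice for each of the 28 pairs of thalamic marker genes, with all 20 mice (black) and without control mouse 4 and 5XFAD mouse 6 (red). The median falls from 0.51 to 0.066.

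The thalamic score of the mice had r = 0.95 and rho = 0.61 with the score of the 18 further thalamic genes, and r = 0.62 without the 2 farthest mice, which were control mouse 4 and 5XFAD mouse 6. With the choroid plexus score it had r = 0.63 and rho = 0.77, and r = 0.75 without those mice. With the hippocampal neuron score r was -0.22 and rho -0.30. These values describe 20 libraries that differ in depth, and the members were chosen with results known, so no p is given.

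Of 12989 other genes that average 1 FPKM or more, the 8 whose deviations from the group means were most like the thalamic score in the 20 mice were *Mir21b* (r = 0.92), *Pdp1* (0.85), *Vcam1* (0.81), *Fhl1* (0.81), *Foxp2* (0.78), *Fbxl4* (0.78), *Uty* (0.77) and *Itih5* (0.77). *Foxp2*, a forkhead factor of thalamus, cortex and striatum, was 3.76 and 3.19 FPKM in control mouse 4 and 5XFAD mouse 6 and at most 1.57 FPKM elsewhere. Its median in the other 18 was 0.662 FPKM, under the filter of 1 FPKM. It may thus have passed through these 2 mice, and its place in the order is no separate evidence of the pattern. *Mir21b*, a microRNA gene, was listed at 0 in the other 18 mice and at 69.1 and 137 FPKM in these, with 3.00 times as many fragments in 5XFAD mouse 6 as in control mouse 4, the ratio that 3 fragments and 1 would give. It passed the filter through these 2 mice only, so its place at the head of the order may rest on very few fragments. Of the 18 further thalamic genes, 13 reached 1 FPKM and were ranked, *Gbx2* and *Zic4* being among those that did not. The highest of the 13 was *Amotl1*, a motin-family junction protein, with r = 0.75 and rank 11, while *Prkcd* had r = 0.65 and rank 47. Others of the list did not follow the score, *Pdzrn3* having r = 0.074 and rank 5228 and *Kcnab3* r = -0.28 and rank 11215.

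In the GFAP+ nuclei of the cortex, a tissue without thalamus, 2 members were higher than in any hippocampal library. *Tcf7l2* lay between 41.0 and 58.8 FPKM and *Lef1* between 10.5 and 17.9 FPKM in the 7 libraries. *Slc17a6*, at 0 to 2.10 FPKM, and *Ramp3*, at 0.413 to 2.68 FPKM, were below their hippocampal medians of 5.55 and 7.49 FPKM. *Prkcd* also lay between 16.4 and 22.2 FPKM there. *Zic1* lay between 5.76 and 10.9 FPKM, *Tnnt1* between 1.11 and 4.04 FPKM, *Synpo2* between 0.993 and 3.18 FPKM and *Rgs16* between 0.131 and 3.46 FPKM. These libraries were made with another kit and normalized on their own, so the values are set side by side and were not tested against the hippocampus.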

How the data were processed

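RNA-seq values of 27 of the 34 samples of the series were used. Not analysed here were the other 7, namely 6 ChIP-seq samples and a library of GFAP+ nuclei. The deposited files hold FPKM values, which the authors made for the hippocampal libraries from 3′ Digital Gene Expression reads with Tophat2 and Cufflinks 2.0.0 on mm9. Because such libraries sample the 3′ end while FPKM scales by the whole transcript, levels are compared between mice and not between genes. No further normalization was added.

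Values were transformed to log2(FPKM + 1). Adding 1 draws the log2 fold changes of genes with low FPKM toward 0, so those printed for such genes understate the ratios of FPKM. Genes averaging 0.5 FPKM or more in the mice of a comparison were fitted with limma 3.58.1 in R 4.3.3 (trend and robust options), and p-values were adjusted over all genes tested by the Benjamini-Hochberg method. A call needed a 1.5-fold change or more with unadjusted p below 0.05. The interaction used all 4 groups. Single members were compared in 32 two-sided exact permutation tests (scipy 1.17.1, Python 3.11.15), whose p-values are unadjusted. Permutation p-values of member pairs are not read, because the members were chosen with results known. These fits were first tested on simulated data with known changes. Because FPKM moves in whole steps of 1 fragment, relative depth was read from those steps, and fragment numbers were taken where every library gave a whole number within 0.1. P-values measure the spread between mice, and the labels name no batch. The control and *Hdac1* cKO libraries form a block of consecutively numbered samples, and those of mice with the *Thy1*-driven transgenes form a separate, later block. Comparisons of mice with these transgenes against control coincide with this split, and the interaction uses both blocks. The split cannot be separated from the transgenes in those comparisons against control, and its part was not tested.

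The members and the gene lists were chosen with earlier results of these data known. Genes named are the 8 members, Prkcd, the further thalamic genes called, the 8 genes most like the thalamic score and the leading genes of marker lists. Gbx2, Rora, Ntng1, Amotl1, Kcnab3 and Pdzrn3 were named after their values were seen. Alternatives were a pseudocount of 0.1, other filters, quantile and median scaling, limma without trend and robust options, 1 fit of all groups, a replicate block, ratios of mean FPKM, adjusted p, the thalamic score as a covariate and each mouse left out. Leaving out control mouse 4 and 5XFAD mouse 6 together, and the exact tests without them, were added after seeing the data.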

Additional observations from a re-analysis of the deposited data

Results flagged for a closer look

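Dixon's test gave 5 flags, on 3 mice, among the 32 combinations of a member and a group, where chance picks about 1 in 20. As 4 of the 5 belong to mice already picked out by eye, on genes chosen with results known, the flags restate that pattern and are no separate evidence of it. In control mouse 4, *Tcf7l2* at 16.2 FPKM was far above the other control mice. In 5XFAD mouse 6, *Tcf7l2* at 20.3 FPKM, *Ramp3* at 31.3 FPKM and *Tnnt1* at 50.9 FPKM were far above the other 5XFAD mice. In compound mouse 1, *Zic1* at 2.76 FPKM was far above the other compound mice. That mouse also had the highest *Ttr* of its group, at 13910 FPKM.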

How the results depend on the processing

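Among the calls of members, Zic1 and Tnnt1 in *Hdac1* cKO mice became 1 gene with all 4 groups in 1 fit and 0 at an adjusted p under 0.05. In compound mice they became 1 in the joint fit, 1 with the replicate block and 0 at an adjusted p under 0.05. In 5XFAD mice the joint fit called 1, Zic1. With single mice left out, the calls ran from 1 to 2 in *Hdac1* cKO mice and from 0 to 1 in 5XFAD mice, in compound against 5XFAD mice and in the interaction. The added calls were Zic1 at -1.48 without control mouse 1 in 5XFAD mice, Tnnt1 at -1.59 without 5XFAD mouse 5 and Zic1 at -0.70 without compound mouse 1 in compound against 5XFAD mice, and in the interaction Zic1 without control mouse 1, control mouse 2, 5XFAD mouse 2 or 5XFAD mouse 6. The 3 further thalamic genes called in *Hdac1* cKO mice and the 2 in compound mice became 0 at an adjusted p under 0.05 and 0 with the thalamic score as a covariate, which itself holds Zic1 and Tnnt1 and so carries part of the group difference. With that covariate, 0 of 15 had an unadjusted limma p under 0.05 in *Hdac1* cKO mice. In compound mice it was 1 of 15, whose change was under 1.5-fold. The 1 called in 5XFAD mice became 0 at an adjusted p under 0.05, 0 with the replicate block and 0 without control mouse 3, control mouse 4, or 5XFAD mouse 1, 3, 4 or 5. With single mice left out these counts ran from 0 to 1 in 5XFAD, 1 to 3 in compound and 0 to 2 in compound against 5XFAD mice. In *Hdac1* cKO mice they ran from 2 to 4. Calb2 was lost there without control mouse 3, control mouse 4, *Hdac1* cKO mouse 4 or *Hdac1* cKO mouse 5, and Prkcd was added without control mouse 1 or 2. Plcb4 was lost in compound mice without control mouse 3 or 4. Prkcd was added without compound mouse 3, with Calb2 against 5XFAD mice. Ramp3 at -0.82 was added in compound mice without control mouse 1. The causes of these shifts were not tested.

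Log2 fold changes near 0 turned sign. For 5XFAD against control, the replicate block, to which mice without a partner add nothing, gave -0.087 for Tcf7l2, -0.093 for Tnnt1 and -0.13 for Lef1. The ratio of mean FPKM gave 0.019 for Ramp3 and -0.037 for Lef1, and leaving out control mouse 4 and 5XFAD mouse 6 gave -0.15 for Tnnt1. With single mice left out the values ran from -0.20 to 0.58 for Tcf7l2, -0.45 to 0.55 for Tnnt1, -0.50 to 0.18 for Ramp3, -0.11 to 0.37 for Lef1 and -0.0067 to 0.18 for Synpo2. For compound against 5XFAD, the replicate block gave 0.093 for Tcf7l2 and 0.13 for Rgs16, and single mice left out gave -0.37 to 0.093 and -0.19 to 0.13. Against control, they gave -0.46 to 0.036 for Slc17a6 in *Hdac1* cKO mice, and -0.30 to 0.35 for Tcf7l2 and -0.43 to 0.046 for Lef1 in compound mice.

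Mice with the same replicate number did not vary together, with correlations of deviations from -0.11 to 0.053 over the 4 comparisons, so the numbers were not taken as pairs. Zic1 and Tnnt1 stayed lower in *Hdac1* cKO and compound mice under every alternative run. Of the 5 members with recovered fragment numbers, Rgs16 and Synpo2 had the lowest medians, 7.5 and 13.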

Other observations

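Other gene lists moved with the thalamic score in ways the comparisons do not use. The meninges score had r = 0.73 with it over the 20 mice and r = 0.63 without control mouse 4 and 5XFAD mouse 6. The striatum score had r = 0.54 and r = 0.66, and the ependyma score r = 0.54 and r = 0.65. The cerebellum score had r = 0.047, and the hypothalamus score r = 0.19. These are descriptions over libraries that differ in depth, with no test.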
